A study of Homo sapiens with 2 samples.

Results

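Peaks on chromosome 8 were examined in a brachyury ChIP-seq list. It was made from MDA-MB-231, an established cell line of human breast cancer, in its wild-type form. All peaks that the deposited list places on this chromosome were taken, 601 of 10342 (5.81%, exact binomial 95% interval 5.37 to 6.28). Of these, 25 lay on the short arm and 576 on the long arm, split at the centromere position of 45.6 Mb. The study compared 1 library from chromatin immunoprecipitation with an anti-brachyury antibody, in cells without any treatment named, with 1 input library of the same cells made without antibody. The list is the single outcome of that comparison, so no spread between replicates can be given, and neither library has a known depth. Positions are those of hg19 (GRCh37), the build named in the submitters' processing notes, with bases counted from 1. On this chromosome 3 peaks lay beyond the last gene that RefSeq places on GRCh38.

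Brachyury is a T-box transcription factor, which binds DNA through a conserved domain and is best known for its part in forming mesoderm and notochord. ChIP-seq reports where DNA fragments bound by such a factor pile up beyond the input, and each pile-up is called a peak. Chromosome 8 carries MYC on its long arm, the gene of a transcription factor that drives cell growth and division and that is often amplified in breast tumours. Loss of the short arm and gain of the long arm are well-known chromosome changes in breast cancer, and neither was measured here.

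The arms differed in how many peaks they carried. The short arm held 0.548 peaks per Mb (exact Poisson 95% interval 0.355 to 0.809) over 45.6 Mb. The long arm held 5.75 peaks per Mb (5.29 to 6.24) over the 100.2 Mb from the centromere to the end of the last peak. The ratio of the densities was 10.5 (exact conditional 95% interval 7.03 to 16.3). It was 4.13 (2.77 to 6.44) when the 5 peak-free intervals of over 3 Mb that lie wholly on the short arm were removed. The one across the centromere was left in. Among peaks that scored at or above the list median the ratio was 18.1 (9.05 to 42.2). Peaks covered 0.532 kb of each Mb of the short arm and 6.73 kb of each Mb of the long arm. The chromosome was chosen with this difference known, so neither the ratio nor the counts by window that follow are given as a test of it. These intervals cover counting error alone and treat peaks as independent.

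Peaks were next counted in windows of 5 Mb and each window was compared with the mean of 17.1 peaks over 593 windows of the whole list. All 9 windows of the short arm, with 0 to 5 peaks each, were among those that an exact Poisson test over the list called lower, which were 19.1% of all windows. Of the 19 windows that lie wholly on the long arm, 11 were called higher and 8 were not called, against 15% called higher over the list. These calls restate the density of arms that were chosen for it, and nothing is read from them. The counts of these 19 windows ran from 13 to 43, with a median of 28, and 18 of them lay above the mean of the list. The window with the centromere, from 45 to 50 Mb, held 16 peaks and was not called.

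The Poisson test treats peaks as independent, while the counts of all windows varied 5.58 times as much as that model allows. A negative binomial test with the spread of all windows called none of the windows of chromosome 8 in either direction, and called 0% lower and 0% higher over the list. A window with 0 peaks, the fewest possible, had an adjusted p of 0.258 in this test. No window could thus be called lower, and nothing is read from the absence of such calls. At an unadjusted p under 0.05, the negative binomial test marked 2 of the 29 windows of chromosome 8 as lower and 3 as higher. Over the list it marked 35 of 593 windows as lower and 9 as higher.

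**Figure D1:**
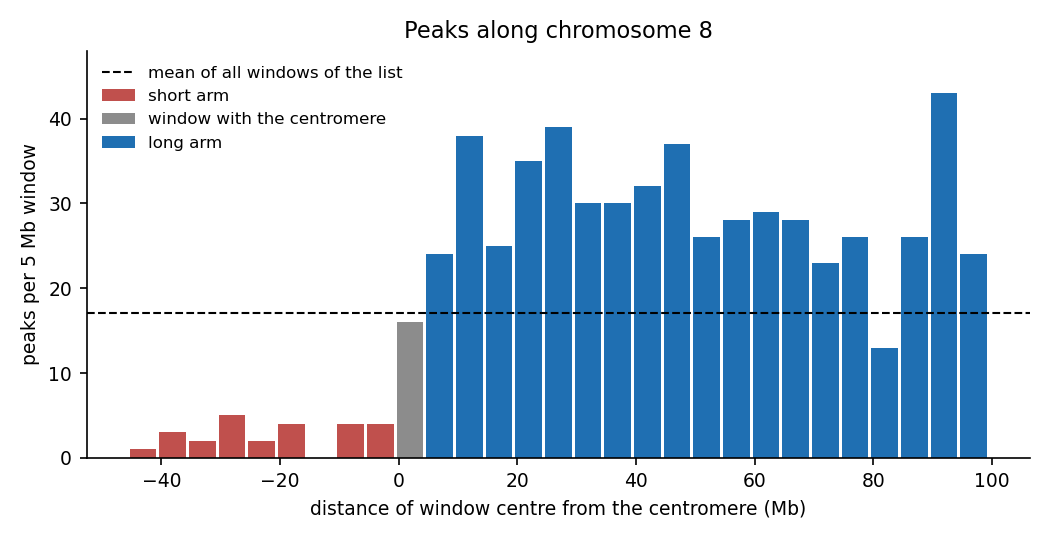
Peaks in each whole 5 Mb window of chromosome 8 (y axis) against the distance of the window centre from the centromere in Mb (x axis), coloured by arm. The 9 short-arm windows hold 0 to 5 peaks and lie below the dashed mean of 17.1 over all windows of the list, while 18 of the 19 long-arm windows lie above it.

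Within each arm the windows varied less than over the list as a whole. The variance to mean ratio of the 5 Mb counts was 0.97 over the 9 windows of the short arm and 1.66 over the 19 windows of the long arm. For the windows of other chromosomes together it was 5.34, which includes the differences between chromosomes. The ratio was not computed within single arms of other chromosomes, so low values are not shown to be particular to chromosome 8. In windows of 1 Mb, 28 of 45 on the short arm held no peak (62.2%), against 14.2% on other chromosomes and 0 of 99 on the long arm. Every whole Mb of the long arm thus held at least 1 peak. Stretches without assembled sequence were not left out of these windows, so the shares are not those of readable sequence alone.

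Stretches of the same length were then looked at on other chromosomes. The first 45 Mb of chromosome 8 held 25 peaks, and the first 45 Mb of the other chromosomes held a median of 128. Among 23 chromosomes, only X had fewer, with 13 peaks, and chromosome 22 followed with 36. For 95 Mb in a row, the stretch with most peaks on chromosome 8 held 556, more than the fullest such stretch on each of the other 15 chromosomes long enough to have one. Chromosome 3 came next with 532. These ranks describe 1 list and were not tested. Each stretch was counted in full, and sequence missing from the assembly was not left out. Over the whole chromosome the density was 4.12 peaks per Mb, which ranked 6 of all chromosomes, and there were 0.841 peaks for each of the 715 protein-coding genes that RefSeq assigns to it, which ranked 4.

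The 25 peaks of the short arm were inspected one by one, from the end of the arm to the centromere. The first peak, from 483302 to 484115, was 814 bp wide and scored 54.08. The score, on the scale of -10 x log10 p given by the peak caller, cannot be under 50 in this list. This peak stood alone, since the next one was 7.72 Mb away.

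A close pair followed. The peak from 8201228 to 8201727 scored 83.45 and, at 500 bp, was the narrowest of the arm. Its neighbour from 8213698 to 8214577 scored 50.32, close to the limit. The pair was 11.97 kb apart, the closest spacing on the short arm.

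Further in, the peak from 9933107 to 9933974 scored 57.7 and the peak from 11465184 to 11466047 scored 57.94. The peak from 11865705 to 11867009 was wider, at 1305 bp, and scored 72.78. After an interval of 3.87 Mb came the group richest in peaks on this arm, with 5 peaks in the window from 15 to 20 Mb.

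In that window the peak from 15737431 to 15738213 scored 55.97. The peak from 16086267 to 16086869 scored 69.82 at a width of 603 bp. The peak from 16703958 to 16704893 scored 74.59. These 3 lay within about 1 Mb of each other. The peak from 17165213 to 17166203 scored 57.34. The peak from 18964933 to 18965819 scored 85.68, the second highest score of the arm.

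The middle of the arm was thinly covered. Between 20 and 25 Mb there were a peak from 23741083 to 23742084 with a score of 50.35 and a peak from 24229996 to 24230901 with a score of 69.37. Between 25 and 30 Mb there were 4 peaks. The peaks from 27299983 to 27300960 and from 27615419 to 27616256 scored 51.57 and 52.67. The peaks from 28722873 to 28723866 and from 28884300 to 28885181 scored 57.18 and 50.21. None of these 4 reached a score of 60.

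No peak was found between 28885181 and 37078742. The peak that ended this interval, from 37078742 to 37079436, was 695 bp wide and scored 56.92. Of the next 3, from 38603839 to 38604831, from 38802639 to 38803500 and from 38817766 to 38818770, only the middle one stood clear of the limit, with a score of 72.38 against 50.81 and 50.2. The peaks from 41332747 to 41333743 and from 42499805 to 42500796 scored 50.6 and 50.86.

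The peak next to last before the centromere stood out from these. The peak from 43092609 to 43095530 was 2922 bp wide, the second widest of the chromosome and ranked 24 by width in the list, and its score of 87.55 was the highest of the arm. The last peak of the arm, from 43671181 to 43671940, was 760 bp wide and scored 57.44. It lay 1.93 Mb before the centromere position, and the first peak of the long arm, from 46993318 to 46994278 with a score of 53.71, lay 1.39 Mb after it.

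Scores did not separate the arms, and 25 peaks give wide intervals. The median score was 57.2 (interquartile range 50.9 to 69.8) on the short arm, 60.7 (54.2 to 69.5) on the long arm and 58.7 (53.8 to 68.3) on other chromosomes. The order of the arms turned among peaks that scored at or above the list median. There the medians were 73.7 (exact 95% interval 69.4 to 87.6) on the short and 68.5 (67.03 to 70.02) on the long arm. The short-arm median rests on only 8 peaks, and its interval spans their whole range. Scores of 60 or more were found for 8 of 25 short-arm peaks (32%, exact binomial 95% interval 14.9 to 53.5) and for 300 of 576 long-arm peaks (52.1%, 47.9 to 56.2). These intervals overlap. On other chromosomes it was 45.3% (44.4 to 46.3), below the interval of the long arm. None of 25 short-arm peaks scored 100 or more (exact binomial 95% interval up to 13.7%). On the long arm 15 peaks did (2.60%, 1.46 to 4.26), a share close to the 2.95% on other chromosomes.

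**Figure D2:**
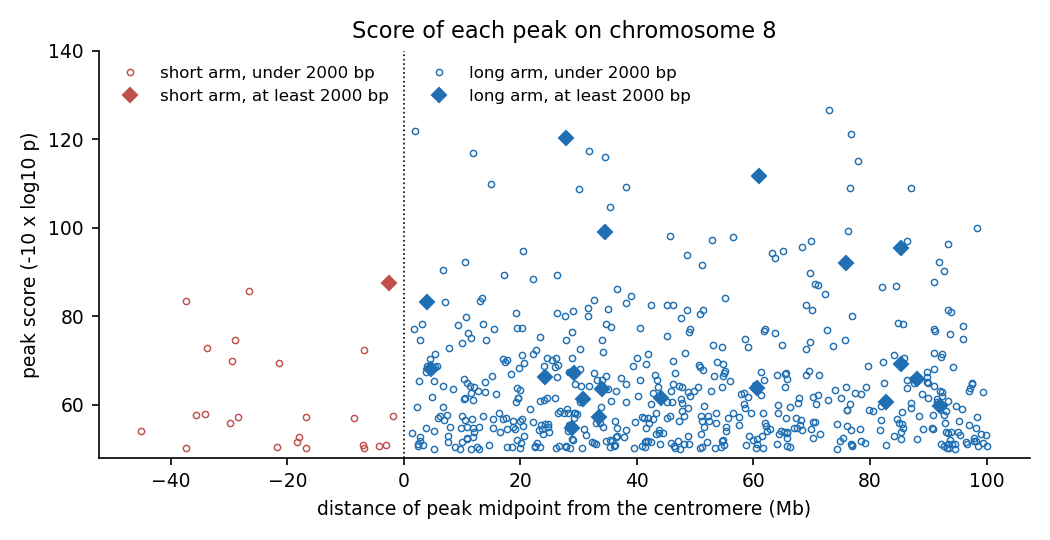
Score of each of the 601 peaks of chromosome 8 (y axis, -10 x log10 p, starting near the limit of 50) against the distance of its midpoint from the centromere in Mb (x axis), with filled diamonds for peaks of at least 2000 bp. The 15 peaks that score at least 100 all lie on the long arm, and the 25 short-arm peaks stay at or below 87.55.

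Long peak-free intervals were a feature of the short arm. Its neighbouring peaks were separated by a median of 862 kb (interquartile range 387 to 1978 kb, 24 intervals), compared with 102.5 kb (45.5 to 237 kb, 575 intervals) on the long arm and 162 kb (66.9 to 346 kb) on other chromosomes. On the short arm 12 of 24 intervals were longer than 1 Mb, and these made up 90.3% of the length between its first and last peak. On the long arm 3 of 575 were, with 3.58% of the length, and on other chromosomes 364 of 9718 were, with 24.9% of the length. The arm order follows from the densities of peaks, since fewer peaks per Mb leave longer intervals between them.

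The longest interval of the chromosome, 8.19 Mb from 28885182 to 37078741, ranked 7 in the whole list. The next ran over 7.72 Mb from 484116 to 8201227 and ranked 8. Intervals that span sequence missing from the assembly were ranked with the others. The third was 4.78 Mb from 18965820 to 23741082. With the intervals of 3.87 Mb from 11867010 to 15737430 and of 3.07 Mb from 24230902 to 27299982, 5 intervals of over 3 Mb took up 27.6 Mb, or 60.6% of the short arm. The interval across the centromere, from 43671941 to 46993317, was 3.32 Mb long. No interval of over 3 Mb lay wholly on the long arm, whose longest was 1.23 Mb.

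**Figure D3:**
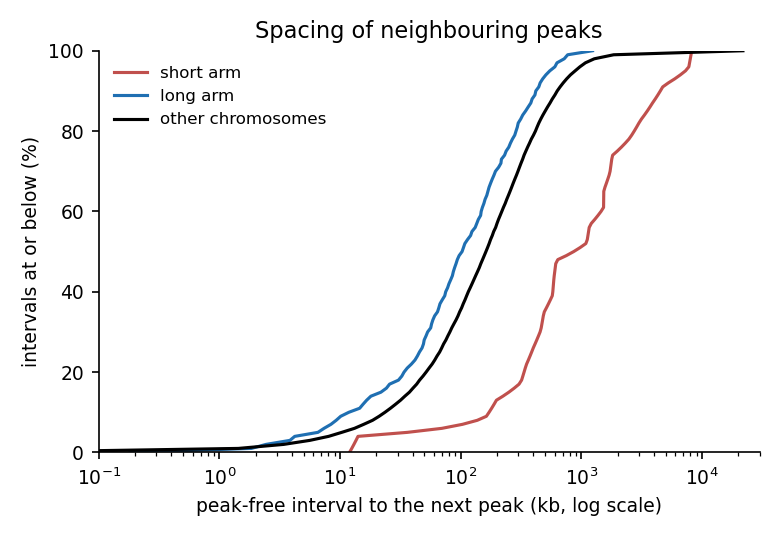
Share of peak-free intervals at or below a given length (y axis, %) against the length in kb on a log scale (x axis), for the short arm, the long arm and other chromosomes. The medians are 862, 102.5 and 162 kb, and the curve of the long arm ends at 1235 kb.

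The density of the long arm was fairly even at a large scale. Cut into 3 parts of equal length, from the centromere outward, it held 199, 206 and 171 peaks, or 5.96 (5.16 to 6.85), 6.17 (5.36 to 7.07) and 5.12 (4.38 to 5.95) per Mb, with overlapping intervals. The fullest 5 Mb window, from 135 to 140 Mb, held 43 peaks, and 2 windows of the list held more. Windows from 70 to 75 Mb with 39 peaks, from 55 to 60 Mb with 38 and from 90 to 95 Mb with 37 followed. The emptiest, from 125 to 130 Mb, held 13 and is the one with MYC. It was not called in either direction.

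At a finer scale, the fullest Mb of the long arm was from 65 to 66 Mb with 14 peaks, followed by the Mb that starts at 100 Mb with 13. Neighbouring peaks less than 10 kb apart were found for 51 of 575 intervals (8.87%, 6.68 to 11.5) on the long arm and for 4.84% (4.42 to 5.28) on other chromosomes, so the intervals of these shares did not overlap. Shorter spacing goes with higher density by construction. Only 3 intervals of the long arm were under 1 kb, the shortest being 182 bp, from 81039038 to 81039219.

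The 5 highest scores of the long arm were spread over its length. The highest, 126.62, belonged to a peak of 1271 bp from 118583734 to 118585004, which ranked 41 in the list. The second, from 47467563 to 47468992, scored 121.88 and lay 1.87 Mb from the centromere. The highest score of the chromosome was thus far below the top of the list, 1102.83. The remaining 3 were a peak from 122269194 to 122270837 with 121.15, a peak of 2012 bp from 73459735 to 73461746 with 120.21, and a peak from 77390392 to 77391470 with 117.44. Of the 15 long-arm peaks that scored at least 100, none was narrower than 1079 bp and the median width was 1621 bp.

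Peaks of the long arm had a larger median width than those of other chromosomes in this list. The median width was 1072.5 bp on the long arm (exact 95% interval 1042 to 1118, interquartile range 916 to 1384), against 955 bp on other chromosomes (951 to 959, interquartile range 836 to 1064). On the short arm it was 887 bp (862 to 992, interquartile range 838 to 993). A width of at least 1200 bp was found in 220 of 576 long-arm peaks (38.2%, 34.2 to 42.3) and in 13.6% (12.9 to 14.3) of peaks on other chromosomes. On the short arm it was found in 2 of 25 peaks (8%, 0.984 to 26.0). Peaks of at least 2000 bp made up 3.30% (2.0 to 5.10) of the long arm and 1.22% (1.01 to 1.46) of other chromosomes. The limit of 1200 bp was set with the widths in view. These intervals treat peaks of 1 call as independent and do not measure a spread between replicates. The difference was not tested.

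Over the list, denser windows held wider peaks, but the dense windows of other chromosomes as a group had narrower peaks than the long arm. In the windows of other chromosomes that were called higher, the median width was 973 bp (965 to 981) and 17.1% (15.6 to 18.6) of 2491 peaks reached 1200 bp. In those called lower the median was 923.5 bp (896 to 944) and 9.88% (6.94 to 13.5) of 344 peaks did. Across 427 windows of other chromosomes with at least 10 peaks, Spearman's rho between the number of peaks and their median width was 0.29, given as a description. Both come from the same call on the same pair of libraries.

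Most windows of the long arm showed the difference in width, with exceptions. Its 19 windows had median widths from 950 to 1458 bp, with a median of 1100 bp, and 18 exceeded 952 bp, the median over windows of other chromosomes. The 90th percentile of those windows was 1015 bp, and 15 of the 19 lay above it. The widest were the windows from 80 to 85 Mb (1458 bp), from 115 to 120 Mb (1268 bp) and from 55 to 60 Mb (1243.5 bp). The fullest window, from 135 to 140 Mb, had the smallest median, 950 bp. In the list, the 7 windows with a larger median than 1458 bp all lay in the first 45 Mb of chromosome 5.

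**Figure D4:**
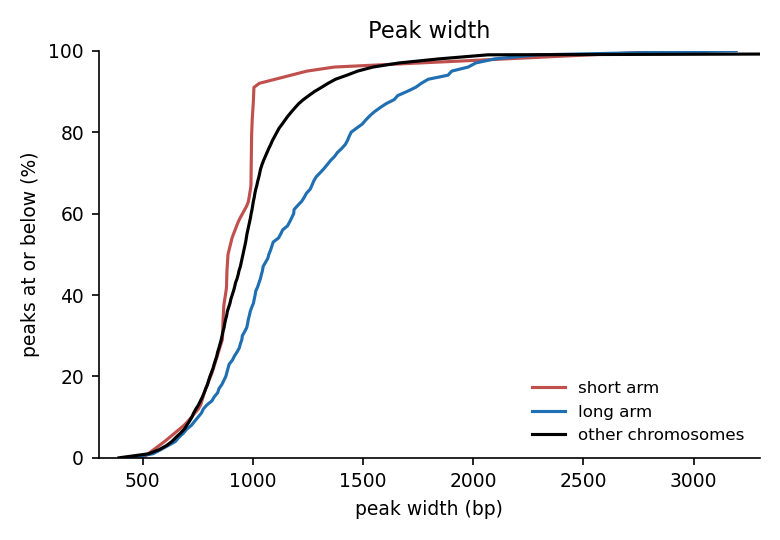
Share of peaks at or below a given width (y axis, %) against peak width in bp (x axis) for the short arm, the long arm and other chromosomes. The curve of the long arm lies to the right, with a median of 1072.5 bp against 887 and 955 bp, and the axis ends before the widest peak of other chromosomes at 8644 bp.

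The 5 widest peaks of the long arm differed widely in score, and 3 of them lay near 80 Mb. The widest, 3193 bp from 80184334 to 80187526, scored 99.03. The peaks from 79171025 to 79173666 (2642 bp) and from 79675955 to 79678446 (2492 bp), within about 1 Mb of it, scored 57.2 and 63.51. The peak from 74439123 to 74441776 was 2654 bp wide with a score of 54.83, near the limit. The fifth, 2316 bp from 130883222 to 130885537, scored 95.52 and lay 2.13 Mb past MYC.

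Narrow peaks scored lower on the long arm than elsewhere. For the 41 long-arm peaks under 700 bp the median score was 62.4 (interquartile range 56.3 to 68.0), while the 777 such peaks of other chromosomes had 69.8 (62.0 to 84.1). In peaks from 700 bp to under 1200 bp the medians were 57.7 and 57.2, and from 1200 bp to under 2000 bp they were 64.1 and 64.6. At 2000 bp or more the median was also lower on the long arm, 66.2 for 19 peaks against 69.7 for 119 peaks elsewhere. These differences were not tested.

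The scores that recur most often in the list were rare on the long arm. In MACS, to which the peak names point, a number of reads is scored against a background rate. That rate is taken from the input around the peak or, where that is lower, from the whole genome. Equal read counts against the genome-wide rate would then give equal scores. The 3 commonest scores of the list, 69.82, 62.13 and 77.79, were shared by 211 of 9741 peaks on other chromosomes (2.17%, 1.89 to 2.48). On the long arm 1 of 576 peaks had one of them (0.174%, 0.0044 to 0.963). On the short arm 1 of 25 did (4%, 0.101 to 20.4), the narrow peak from 16086267 to 16086869. In windows of other chromosomes called higher it was 1.49% (1.05 to 2.04), and in those called lower 5.81% (3.59 to 8.84), so the interval of the long arm lay below both. These intervals treat peaks as independent. Whether the local input had a part in the recurring scores, or in the density or the width of peaks, was not tested.

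Finally, the peaks around MYC were described. MYC lies from 128.748 to 128.754 Mb, and on the GRCh38 assembly of RefSeq its nearest protein-coding neighbours by order are POU5F1B on one side and GSDMC on the other. No peak overlapped the gene. Between 125 and 131 Mb there were 21 peaks, 11 before and 10 after MYC, or 3.5 per Mb (2.17 to 5.35). The rest of the long arm had 5.89 per Mb (5.41 to 6.41), and the ratio was 0.594 (exact conditional 95% interval 0.365 to 0.917). The interval of the ratio reached above 1 for 1 Mb to either side of the gene (0.515, 0.188 to 1.13), for 10 Mb to either side (0.821, 0.654 to 1.02) and among peaks that scored at or above the list median (0.617, 0.315 to 1.09). Among 94 overlapping intervals of 6 Mb along the long arm, taken in steps of 1 Mb, 2 held fewer peaks, and both lay 1 or 2 Mb before it and overlapped it. The median of the 94 was 35 peaks.

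MYC lay inside the longest peak-free interval of the long arm. This interval ran from 128435321 to 129670167 and measured 1.23 Mb, the longest of 575. It took up 1.23% of the arm. The second longest, 1.21 Mb from 126133102 to 127340646, lay between 125 and 131 Mb as well, and the third, 1.07 Mb from 66199931 to 67269340, did not. In the whole list 225 intervals were longer than the one with MYC. The peak nearest to MYC was that from 128433430 to 128435320, 313 kb before the gene, 1891 bp wide and with a score of 50.94, close to the limit. After the gene the nearest was that from 129670168 to 129671436, 916 kb away, with a score of 52.99. Distances are given to the kb, as the position of the gene is.

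On the side before MYC, the first 3 of the 11 peaks were far from the gene. The peaks from 125315238 to 125316122, from 125382103 to 125383054 and from 126132013 to 126133101 lay 3.43, 3.37 and 2.62 Mb away and scored 68.77, 58.87 and 58.55. Next came a group of 4 peaks within 239 kb. The peaks from 127340647 to 127341535, from 127491193 to 127492097 and from 127544204 to 127545182 scored 54.31, 59.73 and 56.62. The fourth, from 127578489 to 127579582, scored 86.66 and lay 1.17 Mb from MYC. The peaks from 127799635 to 127801168, from 128013820 to 128014603 and from 128302349 to 128304641 lay 947, 733 and 443 kb away and scored 69.62, 64.98 and 60.59. Within the last 5 of these 11 peaks, scores fell at each step from 86.66 to 50.94 at the peak nearest to MYC. This run began after a rise from 56.62 and was picked out after the scores had been seen.

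On the side after MYC, the peak from 129727175 to 129728222 lay 973 kb away and scored 71.15. The peaks from 130143968 to 130145703, from 130281393 to 130282547 and from 130327344 to 130328327 lay 1.39, 1.53 and 1.57 Mb away and scored 86.9, 56.8 and 78.53. The Mb from 130 to 131 was the fullest of the 6, with 8 peaks, while the Mb from 126 to 127 held 1. Its other peaks were those from 130633995 to 130634949 (55.76), from 130874804 to 130875929 (53.77), from 130883222 to 130885537 (95.52), from 130907605 to 130909824 (69.22) and from 130998709 to 130999873 (52.15), with scores in parentheses. The third of these had the highest score between 125 and 131 Mb.

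The peaks around MYC were otherwise like those of the rest of the arm. Their median score was 59.7 (range 50.94 to 95.52), against 60.7 in the rest of the long arm. A score of at least 60 was found for 10 of these 21 peaks, and for 300 of 576 (52.1%) over the whole long arm. The median width of the peaks around MYC was 1094 bp (range 784 to 2316), against 1070 bp in the rest of the long arm.

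**Figure D5:**
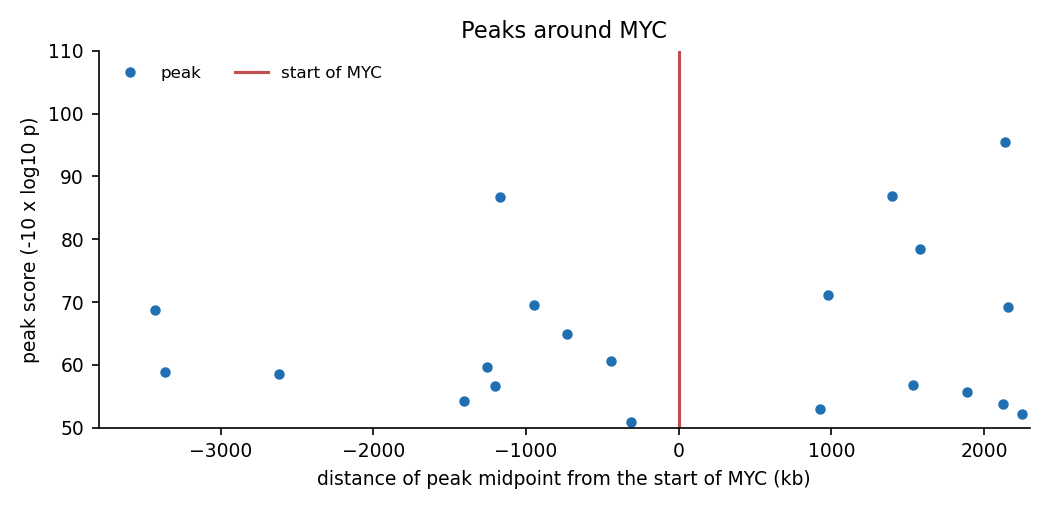
Score of each of the 21 peaks between 125 and 131 Mb (y axis, -10 x log10 p, starting at the limit of 50) against the distance of its midpoint from the start of MYC in kb (x axis, negative before the gene). The red line marks MYC, which lies in a peak-free interval of 1235 kb, with the nearest peak 313 kb before it.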

How the data were processed

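Chromatin from MDA-MB-231 cells was sequenced by the authors in 1 ChIP and 1 input library. The label of the first library names no antibody, and it was taken as the ChIP library by the name of the list. The submitters' processing notes name Bowtie2 2.1.0 and hg19. Peak names point to MACS, and its version, the handling of duplicates and any filter are not given in the sources used here. The authors deposited 1 peak list with a score per peak, on a scale of -10 x log10 p, because its lowest value is 50, which a limit of 1e-05 gives. Start and end are the other deposited columns. A design text on pericardial RNA does not match the labels and was not used.

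A peak was placed by its midpoint, and 1 was added to each start. Windows of 5 Mb ran from the start of each chromosome except Y to its last whole window. They were tested two-sided against the mean of all windows with Benjamini-Hochberg adjustment at 0.05. No window or peak-free interval was left out for lacking assembled sequence. Shares have exact Clopper-Pearson intervals at 95%, medians order-statistic intervals, and densities exact Poisson intervals. All of them treat peaks as independent and cover no spread between replicates. Peaks named one by one were all those of the short arm, the 5 highest-scoring and 5 widest of the long arm, those at intervals of over 3 Mb and all between 125 and 131 Mb. Other peaks and windows named, the limits on width and spacing and the commonest scores were chosen after values had been seen. The chromosome and the comparisons were chosen with earlier results of these data known. No gene other than MYC was placed, since an annotation in hg19 was not used here. Alternatives were peaks with scores at or above the list median, merging within 1 kb, other windows, lengths and intervals, and a negative binomial model. Python 3.11.15, numpy 2.4.6, scipy 1.17.1, pandas 2.3.3 and matplotlib 3.10.9 were used, and the functions were tested on simulated data with known answers.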

Additional observations from a re-analysis of the deposited data

How the results depend on the processing

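Merging peaks less than 1 kb apart left each result of chromosome 8 close to its value in the full list. Among peaks that scored at or above the list median, fewer by construction, chromosome 8 had 323 peaks. For these the density ratio of the arms was 18.1 (9.05 to 42.2), an interval that overlaps that of the full list. The median width of the long arm was 1167 bp and the longest peak-free interval was 14.6 Mb. The median scores were 73.7 on the short arm, from few peaks, and 68.5 on the long arm, which turned their order. The ratio of the arms was 4.13 without the peak-free intervals of over 3 Mb that lie wholly within an arm, all 5 of them on the short arm, and 10.1 to 11.3 with the other lengths tried. With windows of 10 Mb, 5 of 14 were called lower, as fewer windows are tested, and 8 were called higher. Over the list these windows were called lower in 27.4% and higher in 26.7%. The negative binomial model called 0 lower and 0 higher, and its smallest adjusted p over the 593 windows was 0.26. Windows with 0 peaks had that value, so no window could be called lower. The model called nothing anywhere in the list, where 35 windows were lower and 9 higher at an unadjusted p under 0.05. Under the other settings, with 28 to 58 windows of chromosome 8 tested, 8 to 11 were called lower and 8 to 14 higher. Over the list these settings called 9.95% to 19.1% of windows lower and 7.76% to 14.5% higher. No paired analysis was possible because there was 1 library of each kind. Absent replicates and unknown depth limit each score and position.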
